A study of Homo sapiens with 27 samples.

Results

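The genes described here are 43 genes of mitosis and of the G2/M step of the cell cycle, followed through RNA-seq of triple negative breast cancer (TNBC) cell lines in which ZEB1 was repressed. They were taken from the gene table by a list of names and make up 43 of the 57165 genes in it. All 43 had enough counts to be tested in every comparison. By role they comprise 9 cyclins, CDK1 and regulators of mitotic entry, 5 mitotic kinases and passenger proteins, 5 genes of the spindle checkpoint, 6 of the centromere and kinetochore, 6 of the spindle, 7 of the central spindle and cytokinesis, 3 of anaphase and 2 large chromosome proteins.

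SUM159 and MDA-MB-231 are established human TNBC lines with a mesenchymal phenotype, and ZEB1 is a transcriptional repressor that drives this phenotype. Each line was profiled as untransduced cells (wild type), as cells carrying dCas9-KRAB and no guide RNA (No gRNA, the vector control), and as cells carrying dCas9-KRAB with guides against the ZEB1 promoter, with 3 libraries per group. In SUM159 the targeted groups carried gRNA 4 alone or a pool of 4 guides (All gRNA). In MDA-MB-231 the labels of the 6 targeted libraries conflict, so the sets are kept apart without a guide name. For set 1 the title gives gRNA 4 and the count column gives the pool, and for set 2 it is the other way round. dCas9-KRAB, a catalytically dead Cas9 fused to a repressor domain, was expressed from the hUbC promoter of a lentiviral vector that also carried the guide and a puromycin resistance gene. All groups except wild type were transduced and selected with puromycin, so vector, dCas9-KRAB and selection cannot be told apart in any comparison with wild type. The study's methods describe the replicates as individual clones. By the prefix of the count column names, SUM159 belongs to batch 1 and MDA-MB-231 to batch 2, with 3 more SUM159 wild type libraries. The titles of those 3 say run 2, so the batches are called run 1 and run 2 here. The labels do not say what the runs differed in.

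Cells enter mitosis when CDK1, bound to cyclin A or cyclin B, becomes active, and they leave it when the anaphase-promoting complex destroys the cyclins. Between these points the kinases PLK1, AURKA and AURKB build the spindle, the kinetochores attach chromosomes to it, the spindle checkpoint holds anaphase back until all are attached, and the anillin and centralspindlin machinery divides the cell. The transcripts of most of these proteins accumulate late in the cycle, under B-MYB with the MuvB core and FOXM1, and in resting cells the DREAM complex holds them low. Their level in bulk RNA is therefore widely read as a sign of how many cells are cycling. In such RNA a smaller share of cells in G2/M and less RNA per cell cannot be told apart.

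Promoters of this kind are known for CCAAT boxes a short distance upstream of a cell cycle genes homology region (CHR), an element that B-MYB-MuvB and DREAM bind, whose usual form is TTTGAA. RefSeq promoters (GRCh38.p14, 250 bases before to 50 after the start) were matched for 35 of the 43 members and were not matched for FOXM1, AURKA, BIRC5, BUB3, TTK, TPX2, RACGAP1 and UBE2C. The 120 bases before the start are shown for 8 members that the results turn on, 5′ to 3′ on the strand of the gene. Capitals mark TTTGAA and the related forms TTCGAA and TTTAAA, and the CCAAT box, on either strand, so that TTCAAA and ATTGG are reverse strand forms.
KIF20A: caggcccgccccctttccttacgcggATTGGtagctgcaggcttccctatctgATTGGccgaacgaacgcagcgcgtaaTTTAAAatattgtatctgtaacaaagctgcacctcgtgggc
ANLN: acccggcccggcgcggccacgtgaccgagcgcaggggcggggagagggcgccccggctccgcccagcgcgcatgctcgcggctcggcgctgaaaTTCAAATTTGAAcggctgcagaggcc
PLK1: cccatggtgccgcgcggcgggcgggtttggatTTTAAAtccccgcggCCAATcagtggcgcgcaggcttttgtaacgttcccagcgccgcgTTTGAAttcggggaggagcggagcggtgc
CDC20: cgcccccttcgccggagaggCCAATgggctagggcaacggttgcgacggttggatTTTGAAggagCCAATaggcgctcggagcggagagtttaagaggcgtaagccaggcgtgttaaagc
KIF23: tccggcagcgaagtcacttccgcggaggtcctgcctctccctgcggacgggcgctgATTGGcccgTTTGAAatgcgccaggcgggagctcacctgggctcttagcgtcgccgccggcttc
CCNB1: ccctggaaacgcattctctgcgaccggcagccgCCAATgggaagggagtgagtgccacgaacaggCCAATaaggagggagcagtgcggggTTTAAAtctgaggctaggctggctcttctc
MKI67: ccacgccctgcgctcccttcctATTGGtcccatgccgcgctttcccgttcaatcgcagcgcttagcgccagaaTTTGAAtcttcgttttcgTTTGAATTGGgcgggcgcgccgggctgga
TOP2A: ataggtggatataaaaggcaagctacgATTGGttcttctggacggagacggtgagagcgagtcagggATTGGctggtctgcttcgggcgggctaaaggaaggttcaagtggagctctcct

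In GRCh38.p14 these windows lie at chr5:138178992-138179111 (plus strand) for KIF20A, chr7:36389742-36389861 (plus) for ANLN, chr16:23678769-23678888 (plus) for PLK1, chr1:43358861-43358980 (plus) for CDC20, chr15:69414229-69414348 (plus) for KIF23, chr5:69167030-69167149 (plus) for CCNB1, chr10:128126424-128126543 (minus) for MKI67 and chr17:40417897-40418016 (minus) for TOP2A. In GENCODE v44 the genes of KIF20A (138178719 to 138187723) and PLK1 (23677656 to 23690367) begin upstream of the RefSeq start, so that these windows lie within the annotated gene. The windows of ANLN, KIF23 and CCNB1 reach into it, and those of CDC20, MKI67 and TOP2A end just outside it. FOXM1, which has no window here, lies on the minus strand of chromosome 12 at 2857680 to 2877174.

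ANLN carries TTTGAA on both strands, with first bases at -26 and -20 from the start, and PLK1 carries it at -29. MKI67 has TTTGAA at -47 and -29 and CDC20 at -65, while KIF20A and CCNB1 have TTTAAA, at -41 and -30, and no TTTGAA. TOP2A has CCAAT boxes on the reverse strand in the window shown and TTTGAA only farther upstream, at -194 and -151. Over the whole 300 bases, TTTGAA was present in 24 of 35 member promoters (68.6%) against 15.2% of all 35116 promoters in the table, and CCAAT in 27 (77.1%) against 34.6%. TTTAAA was present in 13 (37.1% against 12.2%) and TTCGAA in 2 (5.71% against 1.45%). TTTGAA or TTCGAA together with CCAAT was present in 21 member promoters (60.0%) and in 6.38% of all promoters. A match of letters is a description and not a bound site.

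ZEB1, the targeted gene, had a level of 70.7, 77.3 and 73.3 CPM (read counts scaled to a common library total by TMM) in the 3 SUM159 No gRNA libraries. The gRNA 4 libraries held 4.56, 3.25 and 2.57 CPM of it, and the All gRNA libraries 0.811, 0.375 and 1.02. Both MDA-MB-231 sets were repressed too, to 4.75, 5.51 and 5.74 CPM (set 1) and 4.93, 3.7 and 5.43 CPM (set 2), from 104, 122 and 104 in the vector control. Wild type cells were at 84, 75.8 and 79 CPM in SUM159 run 1, 79.7, 76.9 and 77.5 in run 2 and 74, 65.5 and 70.4 in MDA-MB-231. All libraries expressed the mesenchymal gene VIM, and ESR1, the oestrogen receptor, PGR, the progesterone receptor, and PTPRC, a leukocyte gene, were under 1 CPM in all 27. ERBB2, the third receptor gene that defines TNBC, was at 38.1 to 72.1 CPM. It was lower with gRNA 4 than in SUM159 No gRNA (-0.54 ± 0.11, adjusted p = 0.01 by limma's moderated test). There 3 of 3 libraries lay below all controls. With All gRNA it was at -0.30 ± 0.11, which did not pass this test (adjusted p = 0.114). PECAM1, an endothelial gene, was at 0.382 to 7.93 CPM. By the same test it was higher with All gRNA (1.42 ± 0.39, adjusted p = 0.0393) than in No gRNA. With gRNA 4 its value was 1.29 ± 0.40, which did not pass (adjusted p = 0.0624). In MDA-MB-231 set 2 it was lower than in No gRNA (-1.94 ± 0.44, adjusted p = 0.00317). The part of ERBB2 and PECAM1 in the changes of the members was not tested. EPCAM, an epithelial adhesion gene that ZEB1 represses, was under 2 CPM in all SUM159 libraries and at 12.5, 10.9 and 14.2 CPM in MDA-MB-231 No gRNA, 293, 280.1 and 297 in set 1 and 376, 379.6 and 385 in set 2. Within that low range of SUM159, EPCAM still rose against No gRNA on the log2 scale. The rise was 5.29 ± 0.51 with gRNA 4 and 4.96 ± 0.51 with All gRNA (adjusted p = 3.87e-05 and 7.41e-05 by limma's moderated test). CDH1, which encodes E-cadherin, was at 0.193, 0.273 and 1.02 CPM in MDA-MB-231 No gRNA, 18.9, 24.2 and 10.2 in set 1 and 2.71, 5.04 and 1.26 in set 2. Library totals were 15461200 to 21473757 estimated counts, and no library pair of a group was closer than sampling noise.

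The mean log2 CPM over the 43 members was 7.41 ± 0.02 (SD, n = 3) in MDA-MB-231 wild type, 7.15 ± 0.01 in set 2, 6.70 ± 0.03 in No gRNA and 6.40 ± 0.01 in set 1. These 4 groups did not overlap. In SUM159 it was 6.74 ± 0.02 in wild type run 1, 6.67 ± 0.06 with gRNA 4, 6.61 ± 0.03 with All gRNA and 6.59 ± 0.01 in the vector control, and here the gRNA 4 libraries (6.61 to 6.73) overlapped those of All gRNA (6.58 to 6.63) and of wild type. SUM159 wild type in run 2 was lowest, at 5.79 ± 0.03. As a share of all counts the members took 1.02% ± 0.02 in MDA-MB-231 wild type, 0.840% ± 0.009 in set 2, 0.619% ± 0.013 in No gRNA and 0.493% ± 0.010 in set 1. In SUM159 the 4 groups of run 1 lay between 0.569% and 0.641%, and wild type in run 2 was at 0.331%.

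**Figure D1:**
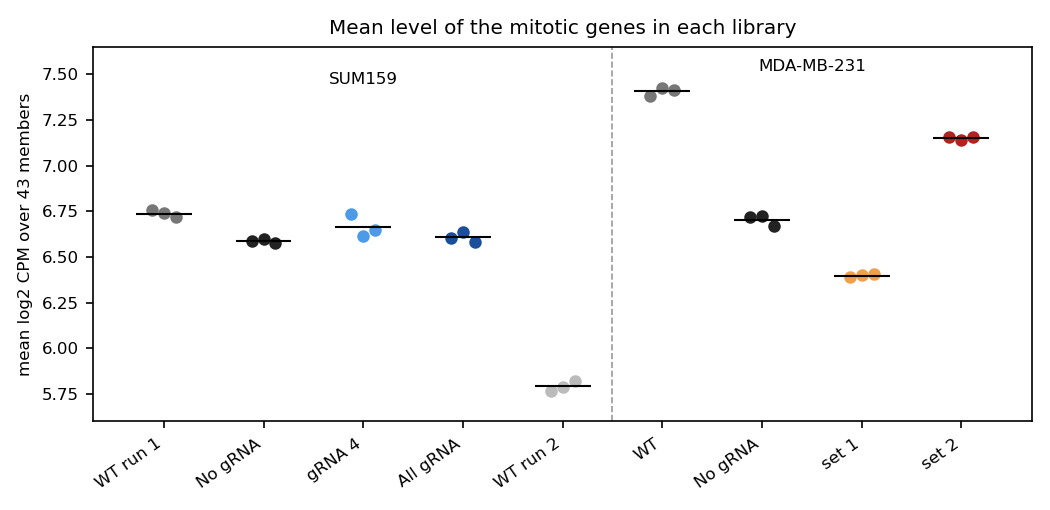
Mean log2 CPM over the 43 mitotic genes (y axis) in each of the 27 libraries (points) by group (x axis), with a bar at the mean of each group of 3. The MDA-MB-231 groups are separated from 6.40 (set 1) to 7.41 (wild type), the SUM159 groups of run 1 lie between 6.59 and 6.74, and SUM159 wild type of run 2 is at 5.79.

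In SUM159, 5 of the 43 mitotic genes differed from the vector control in each ZEB1-targeted group, not the same 5 in both. That is near the share of all genes. With All gRNA 5.93% of all genes were higher and 4.89% lower, and with gRNA 4 6.11% and 4.91%. FOXM1, which was lower, and CCNB1, which was higher, were called in both groups. Both comparisons use the same No gRNA libraries, so these calls are not independent of each other. The call of FOXM1 was lost in 4 alternative settings with All gRNA and in 10 with gRNA 4. FOXM1, the forkhead factor that drives G2/M transcription, was at 144, 142 and 142 CPM in the controls, 130.2, 129 and 121 under gRNA 4 and 123, 118 and 127 under the pool, and the targeted libraries lay below all 3 controls. It fell by 0.18 (SE 0.05, adjusted p = 0.0478 by limma's moderated test) and by 0.22 (SE 0.05, adjusted p = 0.0182) on the log2 scale. CCNB1, the cyclin of the kinase that triggers mitosis, was at 231, 218 and 233 CPM in the controls, 279.6, 266 and 279 under gRNA 4 and 252, 282 and 295 under the pool, above the controls in every targeted library. Its log2 fold changes were 0.27 ± 0.06 (SE, adjusted p = 0.0108) and 0.28 ± 0.06 (adjusted p = 0.00874).

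With All gRNA, 2 of 43 members were higher and 3 lower than in No gRNA by the moderated test, against 5.93% of all 15147 genes tested that were higher and 4.89% that were lower. With gRNA 4, 4 members were higher and 1 lower, against 6.11% and 4.91% of all genes. The libraries did not overlap with No gRNA in 6 members above and 7 below for All gRNA (14.7% and 14.8% of all genes) and in 14 above and 4 below for gRNA 4 (15.8% and 13.7%). The shares of members called (5 of 43 each) are near the background shares. The other members called with All gRNA were MKI67, the proliferation antigen (0.34 ± 0.09, adjusted p = 0.0365), the anillin gene ANLN (-0.27 ± 0.06, 0.0161) and CDC25B, a phosphatase that activates CDK1 (-0.21 ± 0.04, 0.00948). With gRNA 4 they were PTTG1, the securin gene (0.35 ± 0.07, adjusted p = 0.00477), CKS2, a CDK subunit (0.26 ± 0.07, 0.0421) and AURKA, the spindle pole kinase (0.23 ± 0.05, 0.0101). The median log2 fold change of the members was 0.01 with All gRNA and 0.10 with gRNA 4, beside 0.00 over all genes for both. Without gRNA 4 replicate 1, whose member mean of 6.73 log2 CPM stands above the 6.61 and 6.65 of the others, the gRNA 4 median was 0.056. The All gRNA median lay between -0.017 and 0.035 when single libraries were left out.

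TREAT, limma's test against a log2 fold change of 1, called 0 members in either SUM159 comparison, against 0.330% of all genes higher and 0.0660% lower with All gRNA and 0.297% and 0.0924% with gRNA 4. Of the members 0 had an unadjusted TREAT p under 0.05, and edgeR and DESeq2 with the same threshold also called 0. CCNB1 in both targeted groups, CDC25B with All gRNA, and AURKA and PTTG1 with gRNA 4 kept their call under every alternative tried. The calls of FOXM1, ANLN, MKI67 and CKS2 did not: leaving out any 1 No gRNA library, for example, left MKI67 at an adjusted p between 0.0786 and 0.109 and CKS2 between 0.0714 and 0.124. Without No gRNA replicate 1, without No gRNA replicate 2 or without All gRNA replicate 2, the 3 members lower with All gRNA became 1. Without No gRNA replicate 1, 2 or 3 in turn, the 2 higher members became 1. FOXM1 with gRNA 4 lost its call when any 1 of the 6 libraries compared was left out (adjusted p = 0.0577 to 0.159), and the count of lower members was then 0 except without gRNA 4 replicate 1. With library totals as the scaling the split was 1 higher and 3 lower for All gRNA and 3 higher and 2 lower for gRNA 4, and with DESeq2 size factors it was 4 higher and 0 lower for gRNA 4. Other settings gave more calls, with 5 higher for All gRNA and 7 for gRNA 4 by DESeq2's own test, and 4 higher for All gRNA with sample weights. Between All gRNA and gRNA 4, 0 members differed by limma's moderated test, edgeR or DESeq2, against 0.561% of genes higher and 0.383% lower, with 9 members at an unadjusted p under 0.05 and a median of -0.05 beside 0.00 over all genes. All gRNA lay wholly above gRNA 4 in 1 member and wholly below in 14, against 7.08% and 8.89% of all genes. Without gRNA 4 replicate 1, 1 member was higher.

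In MDA-MB-231 most mitotic genes were lower in set 1 and higher in set 2 than in the vector control. KIF20A, a kinesin needed for cytokinesis, was at 51.9, 50.6 and 43.7 CPM in No gRNA, 29.6, 29.1 and 29.9 in set 1 and 145, 153 and 145 in set 2. The set 1 libraries were all below and the set 2 libraries all above the controls. Its log2 fold change was -0.71 ± 0.08 in set 1 (SE, adjusted p = 3.9e-05) and 1.63 ± 0.06 in set 2 (adjusted p = 2.45e-09), the largest rise of a member in that comparison. PLK1, the kinase that acts at centrosomes, kinetochores and the midzone, was at 79.3, 74.4 and 77.9 CPM in No gRNA, 55.8, 55.6 and 63.8 in set 1 and 176, 173 and 187 in set 2. It shows the same separation, with log2 fold changes of -0.40 ± 0.06 (adjusted p = 0.000452) and 1.23 ± 0.05 (adjusted p = 6.7e-09). FOXM1 was at 106, 107 and 93.5 CPM in No gRNA, 80.2, 81.4 and 78.8 in set 1 and 228, 224 and 213 in set 2, and changed by -0.34 ± 0.06 (adjusted p = 0.00122) and 1.14 ± 0.05 (adjusted p = 1.25e-08).

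In set 2, 31 of 43 members were higher than in No gRNA and 1 was lower, against 27.3% higher and 25.1% lower of all 15721 genes tested. The number lower was 2 by edgeR, by DESeq2, with library totals and in a fit of only the groups compared, and 4 with upper quartile scaling, where 28 were higher. All 3 libraries lay above the controls in 33 members and below in 3, against 29.2% and 30.5% of all genes. In set 1, 27 members were lower and 3 higher, against 17.3% and 20.4% of all genes, and the libraries lay wholly below the controls in 26 members and wholly above in 4, against 24.1% and 24.9% of all genes. The median log2 fold change of the members was 0.47 in set 2 and -0.34 in set 1, beside -0.01 over all genes in both. Both comparisons use the same No gRNA libraries. limma's TREAT called KIF20A (adjusted p = 3.28e-05), ANLN (adjusted p = 0.00504) and PLK1 (adjusted p = 0.0161) higher in set 2, 3 of 43 against 1.74% of all genes, and 0 lower, against 2.40%. In set 1 it called 0, against 1.10% of all genes higher and 0.369% lower, with 0 members at an unadjusted TREAT p under 0.05 and 0 by edgeR and DESeq2.

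The 6 largest changes among the called members of set 1 were SPC25 (-0.87 ± 0.17), KIF20A, the topoisomerase gene TOP2A (-0.65 ± 0.08), BIRC5 (-0.60 ± 0.08), AURKA (-0.59 ± 0.05) and UBE2C (0.60 ± 0.03). In set 2 they were KIF20A, ANLN (1.33 ± 0.06), PLK1, FOXM1, CDC20 (1.03 ± 0.05) and KIF23 (0.91 ± 0.06). Of the calls, 24 of 30 in set 1 and 29 of 32 in set 2 held under every alternative. The mitochondrial share of counts was 1.96% to 2.43% in No gRNA, 1.48% to 1.69% in set 1 and 1.40% to 1.56% in set 2. VIM was at 2448, 2379 and 2325 CPM in No gRNA, 1323, 1316 and 1319.7 in set 1 and 2518, 2465 and 2541 in set 2. The part of either in the changes of the members was not tested.

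**Figure D2:**
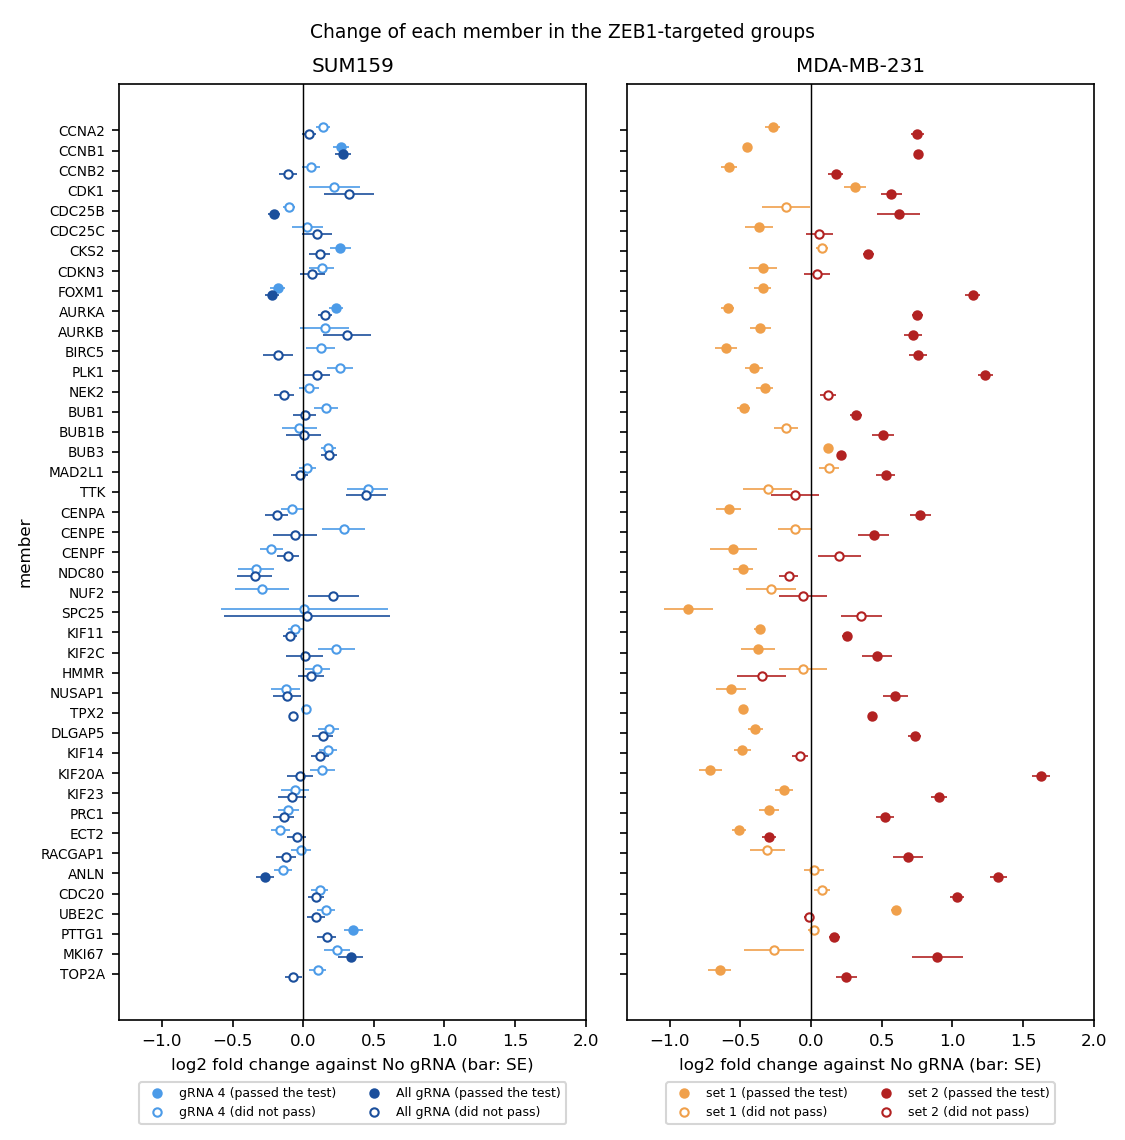
Log2 fold change against No gRNA of the same line (x axis, bar: SE of the fit) for each of the 43 members (y axis, by role) in SUM159 (left) and MDA-MB-231 (right). Filled points passed limma's moderated test. The SUM159 values lie between -0.34 and 0.46, while set 1 is mostly left of 0 and set 2 mostly right of it, up to 1.63 for KIF20A.

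Set directly against each other, 39 of 43 members were higher in set 2 than in set 1 and 1 was lower, against 25.2% and 26.3% of all genes, with a median log2 difference of 0.80 beside -0.03 over all genes. The sets did not overlap in 38 members with set 2 above and 1 with set 2 below, against 27.6% and 31.2% of all genes. KIF20A differed most (2.34 ± 0.07, adjusted p = 3.96e-10), followed by PLK1 (1.64 ± 0.06, 1.22e-09) and FOXM1 (1.49 ± 0.06, 2.49e-09). TREAT called 8 members higher, which were these 3 with BIRC5, CENPA, AURKA, ANLN and CCNB1, against 1.21% of all genes, and 0 lower, against 1.86%. Without set 1 replicate 2 it called 5. The member called in the other direction was UBE2C, the ubiquitin-conjugating enzyme of the anaphase-promoting complex, at 434, 429 and 434 CPM in set 1 and 287, 273 and 277 in set 2 (-0.61 ± 0.03, adjusted p = 3.58e-08). HMMR also had a negative value, which did not pass (-0.29 ± 0.18, adjusted p = 0.199). Since both sets carry guides against ZEB1 and their labels conflict, the difference cannot be assigned to a guide.

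The vector control of MDA-MB-231 was itself well below wild type. KIF20A was at 209.7, 199 and 203 CPM in wild type, against the 43.7 to 51.9 of No gRNA, a log2 fold change of -2.12 ± 0.06 (SE, adjusted p = 1.97e-10). ANLN was at 603, 617 and 659 CPM in wild type and 221, 265 and 244 in No gRNA (-1.42 ± 0.06, adjusted p = 5.24e-09). CDC20, the activator of the anaphase-promoting complex, was at 298, 309 and 300.0 CPM in wild type and 112, 128 and 119 in No gRNA (-1.39 ± 0.05, adjusted p = 1.25e-09). The groups did not overlap in any of the 3 genes. Of the 43 members, 35 were lower in No gRNA than in wild type and 0 higher, against 27.6% and 26.2% of all genes, and the median was -0.82 beside 0.00 over all genes. The groups did not overlap in 35 members with No gRNA below and 2 with it above, against 27.9% and 32.3% of all genes. The number of higher members was 1 by edgeR and by DESeq2, and also by the moderated test without wild type replicate 1 or without No gRNA replicate 2. TREAT called 8 lower and 0 higher, against 1.27% and 2.33% of all genes. It called 4 lower without wild type replicate 3 or without No gRNA replicate 2, and 5 without No gRNA replicate 1 or without No gRNA replicate 3.

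Set 2 had a smaller median difference from wild type than the vector control. In set 2, 24 members were lower than in wild type and 2 higher, against 18.5% and 17.8% of all genes, with a median of -0.30 beside -0.04 over all genes. Set 2 lay wholly below wild type in 29 members and wholly above in 5, against 23.7% and 25.0% of all genes. TREAT called 0 members, against 0.223% of all genes lower and 1.22% higher, with 0 at an unadjusted TREAT p under 0.05 and 0 by edgeR and DESeq2. PLK1 was at 180.0, 176 and 178 CPM in wild type and 176, 173 and 187 in set 2, which overlap (-0.03 ± 0.04, adjusted p = 0.658). The largest falls against wild type were in CDKN3, a CDK phosphatase (-0.85 ± 0.09), NUSAP1, a spindle microtubule binder (-0.77 ± 0.08), and CKS2 (-0.73 ± 0.04). The 2 higher members were CENPE, the kinetochore kinesin (0.45 ± 0.11), and TPX2, the activator of AURKA (0.08 ± 0.02). In set 1, 40 members were lower than in wild type and 1, UBE2C, was higher, against 29.8% and 29.6% of all genes, with a median of -1.06 beside -0.01 over all genes. Set 1 lay wholly below wild type in 39 members and wholly above in 1, against 30.5% and 34.4% of all genes. TREAT called 17 members lower and 0 higher, against 3.37% and 5.04% of all genes, led by KIF20A (-2.84 ± 0.07), NUSAP1 (-1.93 ± 0.09) and BIRC5 (-1.89 ± 0.07). Wild type had the highest mean of the 4 groups in 34 members and set 1 the lowest in 34. The full order from wild type through set 2 and No gRNA down to set 1 held in 22.

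**Figure D3:**
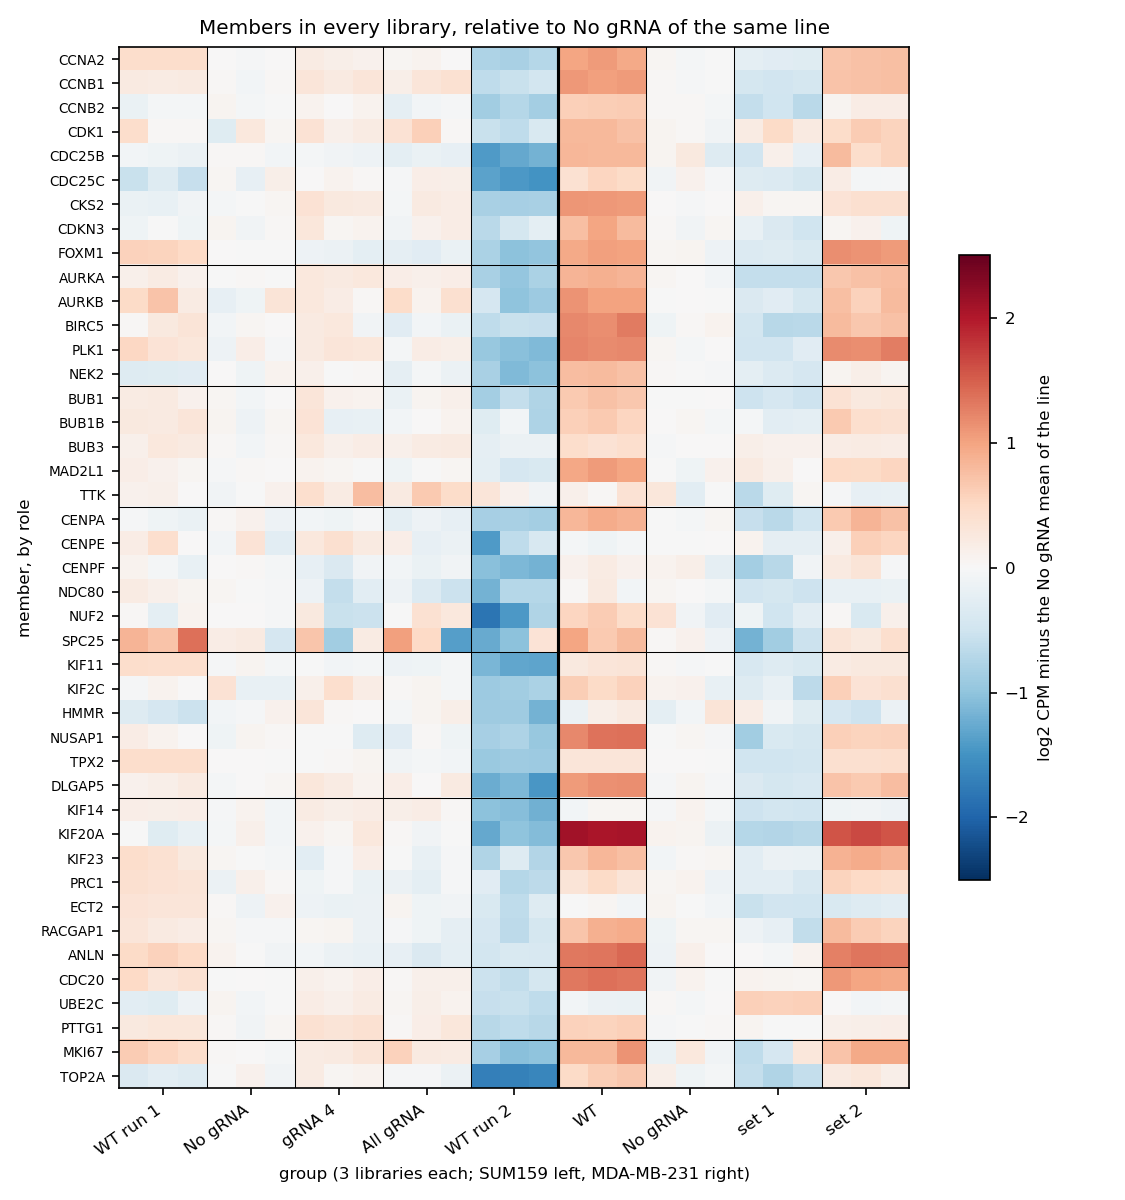
Log2 CPM of each member (rows, by role) in each of the 27 libraries (columns, 3 per group), minus the mean of the No gRNA libraries of the same line (colour scale in log2 units). Red is above and blue below No gRNA. SUM159 gRNA 4 and All gRNA stay near 0, SUM159 wild type of run 2 is blue in nearly all rows, and in MDA-MB-231 wild type and set 2 are mostly red and set 1 mostly blue.

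In SUM159 the vector control also differed from wild type of the same run, with a smaller median. FOXM1 was at 212, 209 and 200.4 CPM in wild type and 144, 142 and 142 in No gRNA (-0.55 ± 0.05, adjusted p = 4.75e-06). MKI67 was at 452, 421 and 398 CPM in wild type and 297, 296 and 284 in No gRNA (-0.54 ± 0.09, adjusted p = 0.000489). Neither gene had overlapping groups. In all, 17 members were lower in No gRNA than in wild type and 5 higher, against 21.9% and 21.0% of all genes, with a median of -0.17 beside 0.02 over all genes. No gRNA lay wholly below wild type in 23 members and wholly above in 7, against 26.8% and 27.4% of all genes. With upper quartile scaling the split was 13 lower and 7 higher. The 5 higher members were CDC25C, which activates CDK1 at mitotic entry (0.48 ± 0.11), the spindle protein gene HMMR (0.42 ± 0.09), TOP2A (0.31 ± 0.06), NEK2, a centrosome kinase (0.29 ± 0.07), and UBE2C (0.23 ± 0.06).

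All gRNA against SUM159 wild type gave 13 lower and 5 higher members, against 24.3% and 24.4% of all genes, and a median of -0.11. gRNA 4 against wild type gave 12 lower and 8 higher, against 23.6% and 23.2%, and a median of -0.03. The medians over all genes were 0.02 and 0.00. With upper quartile scaling the medians of the members were -0.047 for All gRNA and 0.023 for gRNA 4, so that the latter changed sign. That of gRNA 4 was -0.094 without gRNA 4 replicate 1 and 0.0017 without gRNA 4 replicate 2. All gRNA lay wholly below wild type in 15 members and above in 7 (27.9% and 29.2% of all genes), and gRNA 4 in 14 and 14 (26.9% and 28.7%). In both, ANLN and FOXM1 had the largest falls among called members, by 0.79 and 0.77 with All gRNA and by 0.66 and 0.73 with gRNA 4. HMMR and CDC25C had the largest rises, by 0.48 and 0.58 with All gRNA and by 0.52 and 0.51 with gRNA 4. TREAT called 0 members in the 3 SUM159 comparisons with wild type, against 1.66% of all genes higher and 0.640% lower for All gRNA, 1.74% and 0.726% for gRNA 4, and 1.04% and 0.489% for No gRNA, with 0 at an unadjusted TREAT p under 0.05 and 0 by edgeR and DESeq2. All these comparisons share the wild type libraries of run 1.

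Untransduced SUM159 cells differed between the runs. FOXM1 was at 82.4, 70.2 and 71.7 CPM in wild type of run 2 against 200.4 to 212 in run 1, and MKI67 at 164, 141 and 145 against 398 to 452. KIF11, the kinesin that separates the spindle poles, showed the largest fall (-1.69 ± 0.06, adjusted p = 2.33e-11). Of the members, 42 were lower in run 2 and 0 higher, against 30.0% and 28.9% of all genes, and the libraries did not overlap in 42, all lower in run 2, against 32.8% of all genes. TTK, a checkpoint kinase, was the one not called (0.01 ± 0.15, adjusted p = 0.939). The median was -0.95 beside -0.01 over all genes, and TREAT called 10 members lower and 0 higher, against 2.90% and 3.56% of all genes. edgeR and DESeq2 called the same numbers, 42 lower and 0 higher. Sequencing, culture and time of harvest cannot be told apart here. The MDA-MB-231 sets, whose difference had a median of 0.80, share a batch prefix. The part of sequencing, culture and harvest in that difference was not tested.

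Among the 9 regulators of entry, 6 were lower and 1 higher in set 1 than in No gRNA, against 17.3% and 20.4% of all genes. In set 2, 7 were higher, against 27.3% of all genes. CCNB1 was at 267, 258 and 260.0 CPM in MDA-MB-231 No gRNA, 192, 188 and 192 in set 1, 431, 437 and 439 in set 2 and 552, 535 and 546 in wild type. The 4 groups did not overlap, and the log2 fold changes against No gRNA were -0.45 ± 0.03 in set 1 and 0.76 ± 0.03 in set 2. CCNA2, the cyclin of S and G2 phase, changed by -0.27 ± 0.05 and 0.75 ± 0.05, and CCNB2, the second B-type cyclin, by -0.58 ± 0.06 and 0.17 ± 0.05. The small rise of CCNB2 in set 2 was not called with upper quartile scaling or library totals (adjusted p = 0.211 and 0.0881). CDK1 itself was at 128, 125 and 116 CPM in No gRNA, 141, 170.4 and 144 in set 1 and 168, 189.5 and 179 in set 2, so that it was higher than the control in both sets (0.31 ± 0.08, adjusted p = 0.00807, and 0.57 ± 0.07, adjusted p = 6.22e-05). CDC25C (-0.37 ± 0.10) and CDKN3 (-0.34 ± 0.10) were lower in set 1, and neither passed in set 2 (0.06 ± 0.09 and 0.04 ± 0.09). The call of CDC25C was lost without set 1 replicate 3 (adjusted p = 0.0502), and that of CDKN3 without No gRNA replicate 1 or 3 or set 1 replicate 2 or 3 (adjusted p = 0.0531 to 0.0805). CKS2 and CDC25B passed in set 2 (0.41 ± 0.04 and 0.62 ± 0.15) and not in set 1 (0.08 ± 0.04 and -0.18 ± 0.17).

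All 5 kinase and passenger genes were lower in set 1 (17.3% of all genes) and 4 of 5 higher in set 2 (27.3%). AURKA was at 162, 159 and 151 CPM in No gRNA, 104, 104 and 105 in set 1, 253, 263 and 268 in set 2 and 283, 294 and 284 in wild type. The groups were separate, and set 2 rose by 0.75 (SE 0.04, adjusted p = 3.06e-08). AURKB, the kinase of the chromosomal passenger complex, was at 70.1, 71.3 and 70.1 CPM in No gRNA, 54.7, 57.7 and 51.9 in set 1 and 119, 105 and 121 in set 2. BIRC5, which encodes survivin, the passenger protein that brings AURKB to centromeres, was at 86, 94.6 and 98.1 CPM in No gRNA, 67.7, 57.5 and 57.9 in set 1 and 159.6, 149 and 155 in set 2. Both separated in the same order, with fold changes in set 2 of 0.72 ± 0.06 and 0.76 ± 0.07 (adjusted p = 2.75e-06 and 2.38e-06). NEK2 was lower in set 1 (-0.33 ± 0.06, adjusted p = 0.00129) and did not pass in set 2 (0.12 ± 0.06, adjusted p = 0.09).

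Of the 5 spindle checkpoint genes, 1 was lower and 1 higher in set 1, near the 17.3% and 20.4% of all genes. In set 2, 4 were higher, against 27.3% of all genes. BUB1, the checkpoint kinase of kinetochores, was at 160.0, 159 and 163 CPM in No gRNA, 112, 121 and 112 in set 1 and 206, 189.9 and 194 in set 2 (-0.48 ± 0.05 and 0.31 ± 0.04). BUB3, which holds BUB1 and BUBR1 at kinetochores, was slightly higher than the control in both sets, at 317, 324 and 327 CPM in No gRNA, 355, 345 and 347 in set 1 and 367, 371 and 366 in set 2. The rise in set 1 (0.12 ± 0.03) was not called with upper quartile scaling or library totals (adjusted p = 0.243 and 0.381), while that in set 2 was 0.21 ± 0.03. MAD2L1, which encodes the MAD2 inhibitor of CDC20, and BUB1B, which encodes BUBR1, passed in set 2 (0.53 ± 0.07 and 0.51 ± 0.08) and not in set 1 (0.13 ± 0.07 and -0.18 ± 0.09). TTK passed in neither (-0.31 ± 0.17 and -0.11 ± 0.17), and its libraries were spread, from 55.0 to 90.8 CPM in set 1 and from 72.6 to 106 in No gRNA.

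At the centromere and kinetochore 4 of 6 genes were lower in set 1, against 17.3% of all genes. In set 2, 2 of 6 were higher, near the 27.3% of all genes. CENPA, the histone H3 variant that marks centromeres, was at 24.3, 23.7 and 25.4 CPM in No gRNA, 16.3, 15.2 and 17.4 in set 1 and 38.7, 44.3 and 40.4 in set 2 (-0.58 ± 0.09 and 0.77 ± 0.07). SPC25, part of the NDC80 complex that grips microtubules, was the member with the fewest counts, at 8.33, 8.81 and 7.54 CPM in No gRNA, 3.57, 4.45 and 5.65 in set 1 and 10.3, 9.76 and 11.1 in set 2. The fall in set 1 passed (adjusted p = 0.0021) and the value in set 2 was 0.36 ± 0.14 (adjusted p = 0.0552). In SUM159 its All gRNA libraries alone ranged from 1.05 to 6.04 CPM, and its log2 fold change had an SE of 0.59. NDC80 was lower in set 1 (-0.48 ± 0.07) and at -0.16 ± 0.07 in set 2, without passing there. CENPF, a large kinetochore protein gene, was called lower in set 1 (-0.55 ± 0.17), which any 1 of 4 libraries decided: without set 1 replicate 1 or 2, or No gRNA replicate 1 or 2, the adjusted p was 0.0663 to 0.0996. CENPE was higher in set 2 (0.44 ± 0.11) and NUF2, the partner of NDC80, passed in neither (-0.28 ± 0.18 and -0.06 ± 0.17).

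Of the spindle genes 5 of 6 were lower in set 1 (17.3% of all genes) and 5 of 6 higher in set 2 (27.3%). TPX2 was at 432, 429.7 and 426 CPM in No gRNA, 305, 304 and 311 in set 1, 566, 567 and 578 in set 2 and 529, 528 and 527 in wild type. Here set 2 was above wild type, and the fold changes against No gRNA were -0.48 ± 0.02 and 0.43 ± 0.02. NUSAP1 was at 105, 109 and 104 CPM in No gRNA, 57.6, 80.7 and 77.5 in set 1 and 159, 155 and 159 in set 2. It rose by 0.60 in set 2 and stayed below the 243, 271 and 274 CPM of wild type. DLGAP5, which stabilizes kinetochore fibres, changed by -0.39 ± 0.05 and 0.73 ± 0.05, KIF11 by -0.36 ± 0.04 and 0.26 ± 0.04, and KIF2C, a kinesin that depolymerizes microtubules, by -0.37 ± 0.12 and 0.47 ± 0.11. The call of KIF2C in set 1 was lost without No gRNA replicate 1, No gRNA replicate 2 or set 1 replicate 3 (adjusted p = 0.0882, 0.0827 and 0.122). HMMR passed in neither set (-0.06 ± 0.17 and -0.35 ± 0.18) and was the only spindle gene with a negative value in set 2.

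The genes of the central spindle and cytokinesis held the 2 largest rises of set 2, KIF20A and ANLN, and ECT2, its only fall by limma's moderated test. ANLN, whose product cross-links actin and septins in the cleavage furrow, was at 243, 236 and 259 CPM in set 1, overlapping the 221 to 265 of No gRNA, and at 579, 615 and 602 in set 2. The rise in set 2 was 1.33 ± 0.06 (adjusted p = 1.33e-08) and the value in set 1 was 0.02 ± 0.07 (adjusted p = 0.837). KIF23, the kinesin of centralspindlin, was at 82.7, 88.7 and 90.6 CPM in No gRNA, 72.4, 78.9 and 77.4 in set 1 and 159.6, 166 and 158 in set 2. Its fall in set 1 (-0.19 ± 0.06) was not called without No gRNA replicate 2 or 3 or set 1 replicate 1 or 3 (adjusted p = 0.0627 to 0.116). RACGAP1, the other centralspindlin subunit, and PRC1, the antiparallel microtubule bundler, rose in set 2 (0.69 ± 0.11 and 0.52 ± 0.06), and PRC1 fell in set 1 (-0.30 ± 0.07) while RACGAP1 was at -0.31 ± 0.12 (adjusted p = 0.0667). ECT2, the exchange factor that activates RhoA at the cell equator, was called lower in both sets by this test, at 318, 301 and 287 CPM in No gRNA, 205, 216 and 213 in set 1 and 232, 242 and 252 in set 2 (-0.51 ± 0.05 and -0.30 ± 0.05). KIF14, a kinesin of the midbody, fell in set 1 (-0.49 ± 0.06) and was at -0.08 ± 0.05 in set 2.

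Of the 3 anaphase genes, 1 was higher in set 1 (20.4% of all genes) and 2 in set 2 (27.3%). UBE2C was at 294, 278 and 287 CPM in No gRNA, 434, 429 and 434 in set 1, 287, 273 and 277 in set 2 and 271, 260.2 and 254 in wild type. Set 1 was above all other MDA-MB-231 libraries, with a log2 fold change of 0.60 ± 0.03 (adjusted p = 9.48e-08). CDC20 was at 127, 126 and 123 CPM in set 1 and 253, 238 and 231 in set 2, beside the 112 to 128 of No gRNA, with log2 fold changes of 0.08 ± 0.06 (adjusted p = 0.331) and 1.03 ± 0.05 (adjusted p = 2.38e-08). PTTG1 was at 141, 142 and 147 CPM in No gRNA, 150.2, 142 and 142 in set 1 and 156, 158 and 160.5 in set 2. It rose in set 2 (0.17 ± 0.04), except with upper quartile scaling, where the adjusted p was 0.115. It has near-identical copies elsewhere in the genome, so its counts are uncertain.

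**Figure D4:**
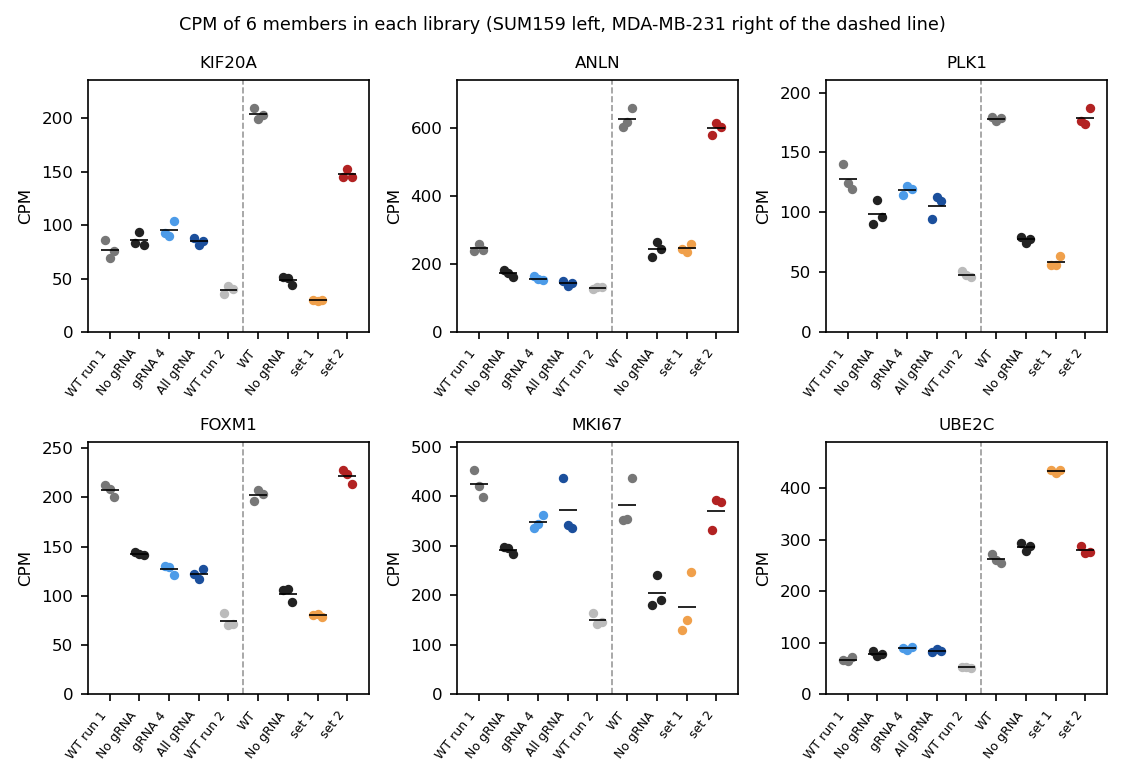
CPM (y axis, linear from 0) of KIF20A, ANLN, PLK1, FOXM1, MKI67 and UBE2C in each of the 27 libraries (points) by group, with a bar at each group mean and SUM159 left of the dashed line. In MDA-MB-231, KIF20A, PLK1 and FOXM1 are lowest in set 1 and high in wild type and set 2, ANLN separates set 2 and wild type from the other groups, MKI67 overlaps between No gRNA and set 1, and UBE2C is highest in set 1.

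MKI67 and TOP2A, the markers most used for proliferation in tumours, differed in how firmly they moved. MKI67 was at 179, 242 and 190.0 CPM in No gRNA, 129, 151 and 246 in set 1, 331, 392 and 389 in set 2 and 352, 354 and 438 in wild type. Set 1 overlapped No gRNA (-0.26 ± 0.21, adjusted p = 0.356), and set 2 lay above it (0.89 ± 0.18, adjusted p = 0.00154). TOP2A was at 570.0, 479 and 498 CPM in No gRNA, 339, 304 and 340.1 in set 1 and 603, 629 and 571 in set 2. All set 1 libraries were below and all set 2 libraries above the controls, with log2 fold changes of -0.65 ± 0.08 (adjusted p = 8.55e-05) and 0.25 ± 0.07 (adjusted p = 0.0116, or 0.0846 with upper quartile scaling).

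The mean change of the targeted groups differed between the lines for 12 members, 6 with the higher value in MDA-MB-231 and 6 in SUM159, against 12.4% and 13.0% of the 17182 genes tested, and TREAT called 0, against 0.291% and 0.663% of all genes, with 0 at an unadjusted TREAT p under 0.05 and 0 by edgeR and DESeq2. The median difference was -0.01 beside -0.04 over all genes. The contrast averages MDA-MB-231 sets that move in opposite directions, and line and run cannot be told apart in it. Without MDA-MB-231 No gRNA replicate 1, 3 members were on the SUM159 side in place of 6. With DESeq2 size factors the split was 7 higher in MDA-MB-231 and 4 in SUM159, with library totals 6 and 8, and with upper quartile scaling 6 and 9.

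Members with and without TTTGAA in the promoter had similar medians in the MDA-MB-231 targeted groups. The median log2 difference between set 2 and set 1 was 0.75 over the 24 with it and 0.80 over the 11 without, and against No gRNA the medians were 0.46 and 0.47 in set 2 and -0.35 and -0.36 in set 1. In the SUM159 comparisons that involve gRNA 4 the medians were farther apart. They were 0.02 with the motif and 0.15 without for gRNA 4 against No gRNA, -0.21 and 0.07 for gRNA 4 against wild type, and -0.04 and -0.15 for All gRNA against gRNA 4. The other SUM159 medians of run 1 were closer, at -0.009 and 0.011 for All gRNA against No gRNA. Against wild type they were -0.17 and -0.11 for All gRNA and -0.16 and -0.18 for No gRNA. No test of these splits was made. Exons of 15 members overlap those of another gene, on the opposite strand in 13, among them PLK1, FOXM1, ANLN, KIF23 and KIF20A, whose exons overlap BRD8 and CDC23. Because the strand setting of the counting is not given, reads of such neighbours may be shared.

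Most other mitotic and condensin genes were lower in set 1 and higher in set 2 as well. The counts below stand beside 27.3% of all genes higher and 25.1% lower in set 2 against No gRNA. In set 1 the shares of all genes were 17.3% lower and 20.4% higher. Of 47 further mitotic genes, 32 were higher and 1 lower in set 2 against No gRNA (median 0.51), and 30 lower and 1 higher in set 1 (median -0.38). The 8 condensin genes, which compact mitotic chromosomes, were all lower in set 1 (median -0.51), and 6 were higher and 1 lower in set 2 (median 0.56). NCAPH, a subunit of condensin I, changed by -0.35 ± 0.06 and 1.28 ± 0.05. Among 17 genes of the anaphase-promoting complex, which include FBXO5, the gene of its inhibitor EMI1, 10 were higher and 3 lower in set 2 (median 0.32) and 5 lower and 3 higher in set 1 (median -0.01). FBXO5 was among the higher genes of set 2 (0.92 ± 0.07) and the lower genes of set 1 (-0.42 ± 0.08). Of 17 genes of DREAM and its upstream factors, 6 were higher and 5 lower in set 2 and 6 lower and 3 higher in set 1. MYBL2, which encodes B-MYB, changed by -0.38 ± 0.06 in set 1 and 1.01 ± 0.05 in set 2. The list was mixed between the sets. In set 2 against set 1, MYBL2 (1.39 ± 0.05) and TFDP1 (1.17 ± 0.04) were higher. CDKN1A (-1.74 ± 0.05), E2F5 (-0.66 ± 0.15) and NFYA (-0.53 ± 0.06) were lower.

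The 40 genes of G1/S and DNA replication had a larger median than the mitotic genes in set 2 (1.21). There 39 were higher and 0 lower than in No gRNA, against 27.3% and 25.1% of all genes. TREAT called 16, against 1.74% of all genes higher and 2.40% lower. In set 1, 26 were lower and 5 higher, against 17.3% and 20.4% of all genes (median -0.46). MCM5, part of the replicative helicase, changed by -0.87 ± 0.15 and 1.91 ± 0.11, while CCNE1, the G1/S cyclin, rose in both (1.53 ± 0.12 and 2.07 ± 0.12). In SUM159 the same list gave 1 higher and 3 lower with gRNA 4 (6.11% and 4.91% of all genes) and with All gRNA (5.93% and 4.89%). Between No gRNA and wild type it gave 34 lower and 1 higher, against 21.9% and 21.0% of all genes (median -0.78). Between MDA-MB-231 No gRNA and wild type all 40 were lower, against 27.6% of all genes (median -1.36). Between SUM159 wild type runs 31 were lower and 3 higher, against 30.0% and 28.9% of all genes (median -0.78). In the last comparison the mitotic members had the lower median, -0.95, and in the vector control comparisons of both lines the G1/S genes did.

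**Figure D5:**
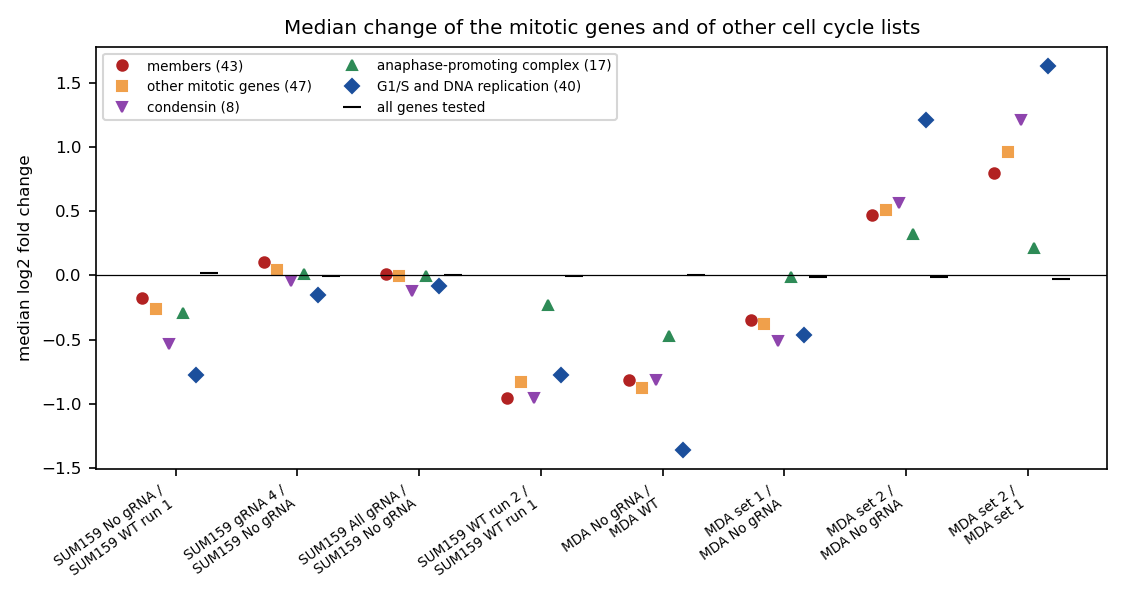
Median log2 fold change (y axis) of the 43 members, of 47 other mitotic genes, 8 condensin genes, 17 genes of the anaphase-promoting complex and 40 genes of G1/S and DNA replication, with the median of all genes tested as a dash, in 8 comparisons (x axis). Within each MDA-MB-231 comparison the medians of the lists have 1 sign, though the anaphase-promoting complex genes in set 1 are near 0, at -0.01. The MDA-MB-231 medians run from -1.36 for G1/S genes in No gRNA against wild type to 1.63 for set 2 against set 1. For the SUM159 targeted groups against No gRNA the medians lie near 0.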

How the data were processed

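RNA was sequenced by the authors as 50 bp single-end reads from 27 libraries in 9 groups of 3. The authors deposited estimated counts, 1 value per gene and library, made with Salmon and tximport (lengthScaledTPM), so that they are corrected for transcript length and not normalized between libraries. The submitters' processing notes name GRCh38, and the Salmon version, annotation and strand setting are not given in the sources used here. Groups follow the labels. Title and column name conflict for 6 MDA-MB-231 libraries, here called set 1 and set 2. Of 57165 gene identifiers, 56347 were matched to GENCODE v44 symbols.

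Comparisons used R 4.3.3, limma 3.58.1, edgeR 4.0.16 and DESeq2 1.42.0: TMM scaling, filterByExpr with a minimum count of 10, voom (0.5 added to counts), and limma's moderated test against 0 over the 12 libraries of a line, two-sided, with Benjamini-Hochberg adjustment over all genes tested and a threshold of 0.05. This is the test behind each adjusted p and each call, unless TREAT or the test of edgeR or DESeq2 is named. TREAT at a log2 fold change of 1 is reported beside it. Wild type libraries of run 2 entered only the fit of 15 SUM159 libraries, and the comparison between lines used 24. Log2 CPM has a prior count of 2. P-values measure the spread between replicates that the labels call biological, and totals of 15461200 to 21473757 estimated counts set the precision.

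The members and lists were chosen with earlier results of these data known. All 43 members may be named, and for each targeted group against No gRNA the 6 called members with the largest change have their fold changes printed. Genes outside the members, and members singled out in other comparisons, were named after their values were seen. Alternatives were edgeR, DESeq2 (on rounded counts), other scalings, no filter, the replicate number as a block, sample weights, fits of only the groups compared, and each library left out. The limma steps were run on simulated counts in which a small set of genes was changed. Many more genes differed in the MDA-MB-231 comparisons, which the simulation does not cover. edgeR and DESeq2 were not run on it. Promoter sequences are from RefSeq and motif searches covered both strands.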

Additional observations from a re-analysis of the deposited data

Results flagged for a closer look

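For 12 members an interaction test (limma's moderated test over 24 libraries) found that the mean change of the targeted groups against No gRNA differed between MDA-MB-231 and SUM159, 6 in each direction, against 12.4% and 13.0% of all genes, which is near the share of members. Given as MDA-MB-231 minus SUM159 on the log2 scale, the difference was 0.86 for ANLN, 0.58 for FOXM1, 0.43 for CDC20, 0.40 for KIF23, 0.38 for KIF20A and 0.30 for MAD2L1. It was -0.68 for TTK, -0.45 for KIF14, -0.32 for ECT2, -0.24 for TOP2A, -0.20 for CCNB2 and -0.19 for PTTG1. Adjusted p-values ran from 1.2e-07 for ANLN and 9.43e-07 for FOXM1 to 0.0399 for CCNB2 and 0.0443 for TOP2A. The MDA-MB-231 value is a mean over set 1 and set 2, whose changes differ in sign for most members, and line and run coincide, so that they cannot be told apart.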

How the results depend on the processing

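The direction of every member called against No gRNA held under every alternative tried. By setting, the values that moved were these. edgeR: 2 members lower in set 2 against No gRNA and 1 higher in MDA-MB-231 No gRNA against wild type. DESeq2: 5 higher with All gRNA and 7 with gRNA 4, 2 lower in set 2, and 1 higher in MDA-MB-231 No gRNA. DESeq2 size factors: 0 lower with gRNA 4 and 1 higher in MDA-MB-231 No gRNA. Upper quartile scaling moved the medians to -0.047 (All gRNA against wild type), 0.023 (gRNA 4 against wild type), -0.11 (SUM159 No gRNA against wild type), -0.41 (set 1), 0.37 (set 2), -1.08 and -0.34 (set 1 and set 2 against wild type), -0.76 (MDA-MB-231 No gRNA against wild type), 0.77 (set 2 against set 1), -0.88 (run 2 against run 1) and -0.051 (between lines), and the counts to 4 lower in set 2, 1 higher in set 2 against wild type, and 1 higher and 5 past TREAT in MDA-MB-231 No gRNA. Library totals gave medians of -0.0264 (All gRNA), -0.14 (All gRNA against wild type), -0.43 (set 1), 0.41 (set 2), -1.11 and -0.34 (set 1 and set 2 against wild type), -0.79 (MDA-MB-231 No gRNA against wild type), 0.82 (set 2 against set 1) and -0.90 (runs), and 1 higher with All gRNA, 2 lower with gRNA 4, 2 lower in set 2, 1 higher in set 2 against wild type and 1 higher in MDA-MB-231 No gRNA. Without a filter there were 1 higher with All gRNA, 0 lower with gRNA 4 and 3 on the SUM159 side between lines, with medians of -0.27 (set 2 against wild type) and 0.82 (set 2 against set 1). Sample weights gave 4 higher with All gRNA. Fits of only the groups compared gave 1 higher and 1 lower with All gRNA, 0 lower with gRNA 4, 2 lower in set 2, and medians of -0.28 and 0.81 (set 2 against wild type and set 1). The causes were not tested.

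Leaving out 1 library gave medians of -0.017 to 0.035 (All gRNA), 0.056 to 0.14 (gRNA 4), -0.14 to -0.089 and -0.094 to 0.0017 (All gRNA and gRNA 4 against wild type), -0.38 to -0.33 (set 1), 0.44 to 0.52 (set 2), -1.14 to -1.04 and -0.33 to -0.27 (set 1 and set 2 against wild type), 0.77 to 0.86 (set 2 against set 1) and -0.96 to -0.89 (runs). Counts were 1 to 3 higher and 1 to 3 lower with All gRNA, 0 to 1 lower with gRNA 4, 0 to 1 higher between the SUM159 targeted groups, 0 to 1 higher and 4 to 7 past TREAT in MDA-MB-231 No gRNA, 5 to 8 past TREAT for set 2 against set 1, and 3 to 7 on the SUM159 side between lines.

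Same-numbered libraries showed no shared deviation (correlations of -0.06 to 0.05 in SUM159 and -0.04 to 0.04 in MDA-MB-231, 0 of 18 over 0.1 in each line). The main fits therefore did not pair them. These correlations cannot show whether same-numbered libraries were cultured or harvested together. With the replicate number as a block, 0 members were lower with gRNA 4 and the other counts and medians were within 1.5 times or the replicate spread. A block for the runs and a 2-group fit for the comparison of lines were not run. SPC25, with 32.9 to 252 counts per group on average, is limited by depth.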
